A study of Homo sapiens with 4 samples.

Results

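The translation initiation and elongation factors are the proteins that load the ribosome onto mRNA, place it at the start codon and drive each round of peptide synthesis. The group was taken by name as the protein-coding genes whose symbol starts with EIF1, EIF2, EIF3, EIF4, EIF5, EIF6, EEF1 or EEF2. Of 65 such genes, 64 had an RPKM (read counts divided by exon length and library size) of at least 1 in at least 1 library, out of 14626 genes that did so among the 19801 listed. The gene that did not was EIF5AL1, a near copy of EIF5A, at 0.00 to 0.10 RPKM. The rule uses names and a minimum level and no expression difference, although it was written with earlier results of these data known. A few of them carry the name without being a factor, such as EEF1E1 (also AIMP3, a scaffold protein of the aminoacyl-tRNA synthetase complex), EIF1AD, the methyltransferases EEF1AKMT1, EEF1AKMT2, EEF1AKMT3 and EEF2KMT, and the kinases of eIF2 and eEF2.

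The data were RNA-seq libraries of LNCaP, a human prostate cancer cell line that responds to androgen and has the markers of luminal prostate cells, grown in medium with serum. The cells were transiently transfected for 24 h with an empty vector or with the expression construct AR1-651, and each was then left untreated or given AIL (ailanthone, a plant quassinoid) for 12 h. Each of the 4 conditions (empty vector and AR1-651, both without and with AIL) was 1 library, so there was no replicate error, no test was possible and no p-value is given. Every difference below compares single libraries and could be biological or technical.

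The luminal markers KLK3, at 287 to 1442 RPKM, and FOLH1, at 425 to 840 RPKM, were present in each library, while the basal keratin KRT14 was at most 0.21 RPKM (KRT5 and TP63 were not analysed here), the blood cell marker PTPRC was at most 0.94 RPKM and the stromal markers VIM, COL1A1, COL1A2 and DCN were at most 4.59 RPKM. The androgen-responsive genes KLK2 and TMPRSS2 were higher with AR1-651 (198 and 276 RPKM) than with empty vector (14.3 and 36.7 RPKM). The conditions below are named by their labels. Between 12787 and 13747 genes reached 1 RPKM in a library, and the sequencing depth is unknown. Of the summed RPKM, 33.0% fell on the 84 cytosolic ribosomal protein genes in the AR1-651 library and 22.3% to 25.5% in the other 3. RPKM is scaled to library size, so more reads on such genes lower the values of all others. It is also divided by exon length, so a share of the summed RPKM is not a share of the reads. The summed RPKM differed, at 502594 in empty vector, 535851 in empty vector + AIL, 646882 in AR1-651 and 566155 in AR1-651 + AIL. In a bulk library, fewer cells with a transcript and less of it per cell cannot be told apart, and the share of cells that took up the plasmid is not given in the sources used here.

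In eukaryotes the small ribosomal subunit first binds eIF1, eIF1A, eIF3, eIF5 and the initiator tRNA, which is carried by eIF2 with GTP. The eIF4F complex (the cap-binding protein eIF4E, the scaffold eIF4G and the helicase eIF4A) brings it to the mRNA, and the 4E-binding proteins block this step when mTOR is inactive. eIF2B recharges eIF2 with GTP, and stress kinases that phosphorylate eIF2 alpha stop that exchange and so lower initiation while a few mRNAs such as ATF4 are favoured. eEF1A then delivers each aminoacyl-tRNA, the eEF1B subunits recharge eEF1A, and eEF2 moves the ribosome on by a codon.

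Many mRNAs of the translation machinery start with a C followed by a run of pyrimidines, the 5′ terminal oligopyrimidine (TOP) tract, through which mTOR and LARP1 control their translation and stability. RefSeq promoter sequences (GRCh38.p14, 250 bases before to 50 after each annotated start) were found for 51 of the 64 members. A first base C followed by at least 4 C or T was present at an annotated start of 12 of these 51 members (23.5%), against 7.01% of the 11173 genes that passed the same RPKM minimum and had a promoter sequence and 5.14% of all 27305 genes with one. The starts of these 12 are printed because they are the shared sequence feature to which the elongation factor results are compared below. Each line runs from 10 bases before the annotated start through its first 20 transcribed bases, on the gene's own strand, and capitals mark the pyrimidine run from the first base.

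EEF1A1 at chr6:73521013-73521042, minus strand: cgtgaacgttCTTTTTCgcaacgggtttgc
EEF1B2 at chr2:206159885-206159914, plus strand: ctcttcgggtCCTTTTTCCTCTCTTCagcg
EEF2 at chr19:3985444-3985473, minus strand: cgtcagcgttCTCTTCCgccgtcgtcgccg
EIF2A at chr3:150546777-150546806, plus strand: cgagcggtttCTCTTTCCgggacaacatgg
EIF2D at chr1:206612446-206612475, minus strand: ccagccgggcCCTTTTCgcggccgggcccc
EIF2S3 at chrX:24054946-24054975, plus strand: gatttccttcCTCTTTTggcaacatggcgg
EIF3D at chr22:36529147-36529176, minus strand: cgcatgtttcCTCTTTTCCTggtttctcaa
EIF3F at chr11:7987327-7987356, plus strand: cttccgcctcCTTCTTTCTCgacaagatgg
EIF3K at chr19:38619178-38619207, plus strand: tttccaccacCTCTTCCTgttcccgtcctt
EIF3M at chr11:32583821-32583850, plus strand: gcccagttccCTTTTCCggtcggcgtggtc
EIF4A2 at chr3:186783567-186783596, plus strand: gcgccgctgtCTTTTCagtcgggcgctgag
EIF4B at chr12:53006446-53006475, plus strand: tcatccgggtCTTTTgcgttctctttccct

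As examples of a start without the run, and so without capitals, 4 members are printed that were chosen for their large differences with AIL. The choice fixes the contrast, since EIF3D, EIF3M and EIF4A2 have the run and were higher with AIL in both backgrounds too.

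EIF1B at chr3:40309697-40309726, plus strand: cattttgtgcgagaagccgcagcgccgcct
EIF2B2 at chr14:75002911-75002940, plus strand: cgcccgccccggaagtgcaaactgtgtggt
EIF2B5 at chr3:184135348-184135377, plus strand: cagcttccttgcggaagtggtgaccgtgag
EIF2S1 at chr14:67360318-67360347, plus strand: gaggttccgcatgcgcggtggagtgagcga

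The same promoters were searched on both strands for 3 other short motifs. The E-box CACGTG (the site of MYC and related factors) was present in 25.5% of the members with a promoter and in 12.2% of the genes that passed the RPKM minimum with one. The ETS motif CGGAAGT was present in 23.5% and 15.4%, and the ATF4 motif TGATGNAA in 1.96% and 2.51%. A match is a description of the letters and not a binding site.

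The 3 most abundant members were the elongation factors EEF1A1, EEF1G and EEF2, each at 917 RPKM or more in all 4 libraries, and the least abundant were EIF5A2, EIF4E3 and EEF1AKMT2, at 1.73 to 5.71 RPKM. Summed over the 64 members, the level was 13594 RPKM in empty vector, 11629 in empty vector + AIL, 13751 in AR1-651 and 11216 in AR1-651 + AIL. These were 2.70%, 2.17%, 2.13% and 1.98% of all RPKM. The 6 eEF1 and eEF2 genes made up most of this sum in the libraries without AIL, with 1.75% of all RPKM in empty vector and 1.32% in AR1-651, and held 1.12% and 0.910% in the matching AIL libraries. The other 58 members went the other way, with 0.954% and 0.802% without AIL and 1.05% and 1.07% with AIL. Shares in empty vector and AR1-651 have unlike denominators, since the summed RPKM was 502594 and 646882. In RPKM, the 6 eEF1 and eEF2 genes summed to 8798 in empty vector and 8565 in AR1-651. The other 58 members summed to 4795 and 5187, which was higher with AR1-651 although their share was lower.

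**Figure D1:**
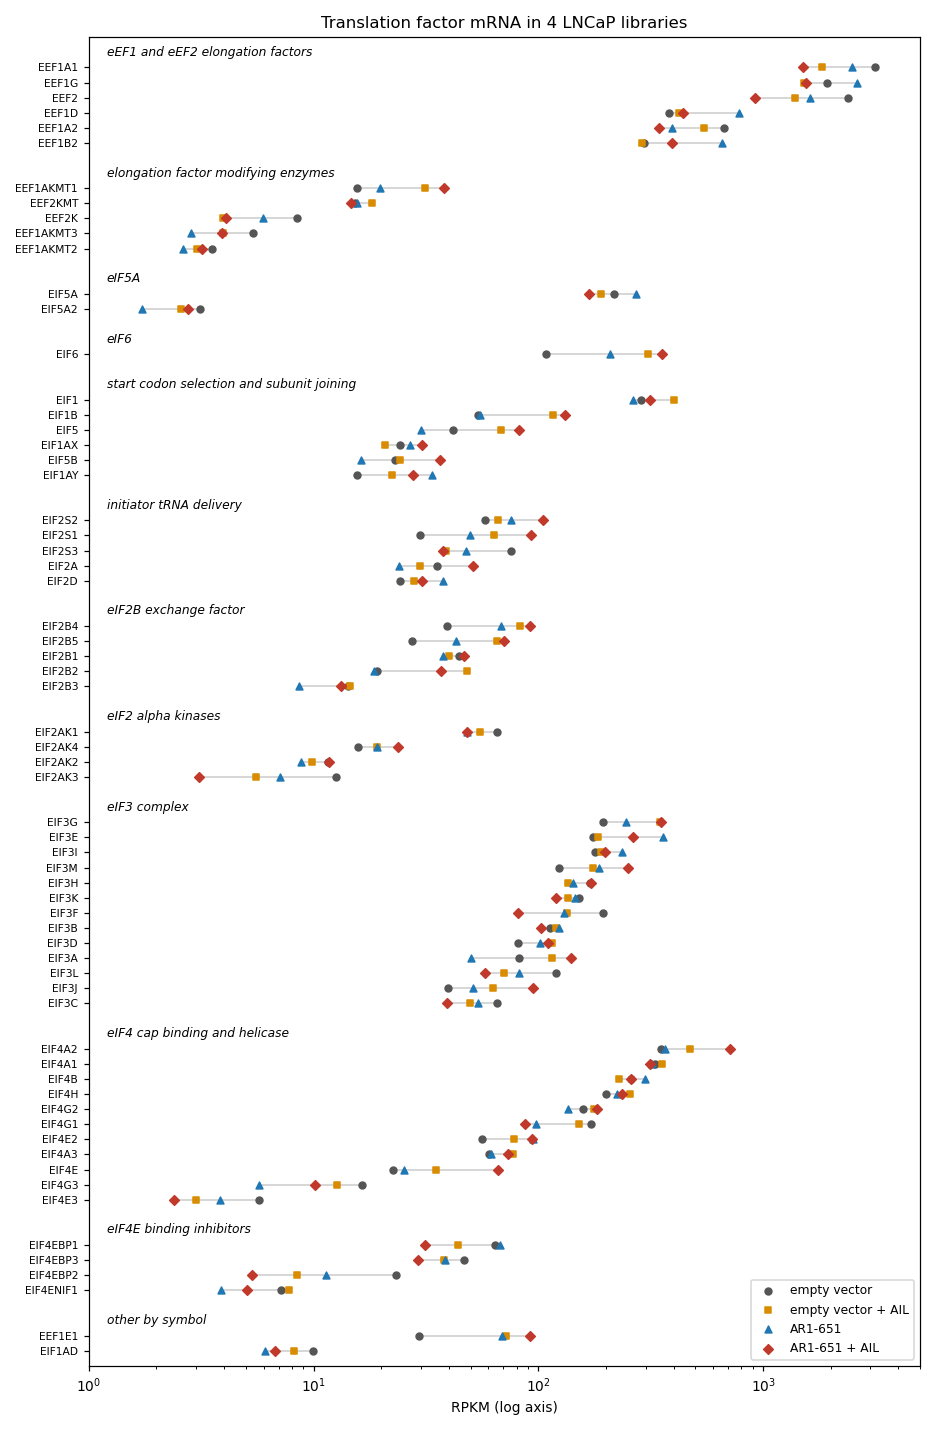
RPKM of the 64 members in the 4 libraries on a log axis, grouped by function, with 1 symbol per library and a grey line over the range of each gene. The eEF1 and eEF2 genes lie between 289 and 3140.1 RPKM, EIF6 is lowest with empty vector at 108 RPKM, and EIF2AK3 and EIF4EBP2 are highest with empty vector.

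Changes were taken as differences of log2(RPKM + 1), where a difference of 1 is a 2-fold change, and they understate the change of genes with low RPKM. With AR1-651 against empty vector, 5 members were higher and 1 was lower by at least 2-fold, where 4.01% of all genes were at least 2-fold higher and 11.7% lower. With AIL, 7 members were at least 2-fold higher and 2 lower in cells with empty vector, beside 9.53% and 9.03% of all genes. In cells with AR1-651, 6 members were at least 2-fold higher with AIL and 1 was lower, beside 14.9% and 5.74% of all genes. That balance depended on the processing, with 4 higher and 5 lower under median-ratio scaling and 0 higher and 5 lower once the trend over transcript length and GC content was subtracted, as described below. Between the AIL-treated libraries, AR1-651 + AIL and empty vector + AIL, no member differed by 2-fold in either direction, and 1.46% of all genes were higher and 3.56% lower.

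The median difference of the members was -0.04 with AR1-651 (all genes -0.30), 0.07 with AIL in empty vector cells (all genes -0.02), 0.16 with AIL in AR1-651 cells (all genes 0.13) and 0.04 between the AIL-treated libraries (all genes -0.03). The median of the members was thus within 0.1 of that of all genes in each comparison except with AR1-651. There the centre of all genes depends on the scaling: it was -0.30 as deposited, -0.085 with median-ratio scaling and -0.43 with equal sums over all genes other than the ribosomal protein genes, and the median of the members was then 0.22 and -0.20.

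**Figure D2:**
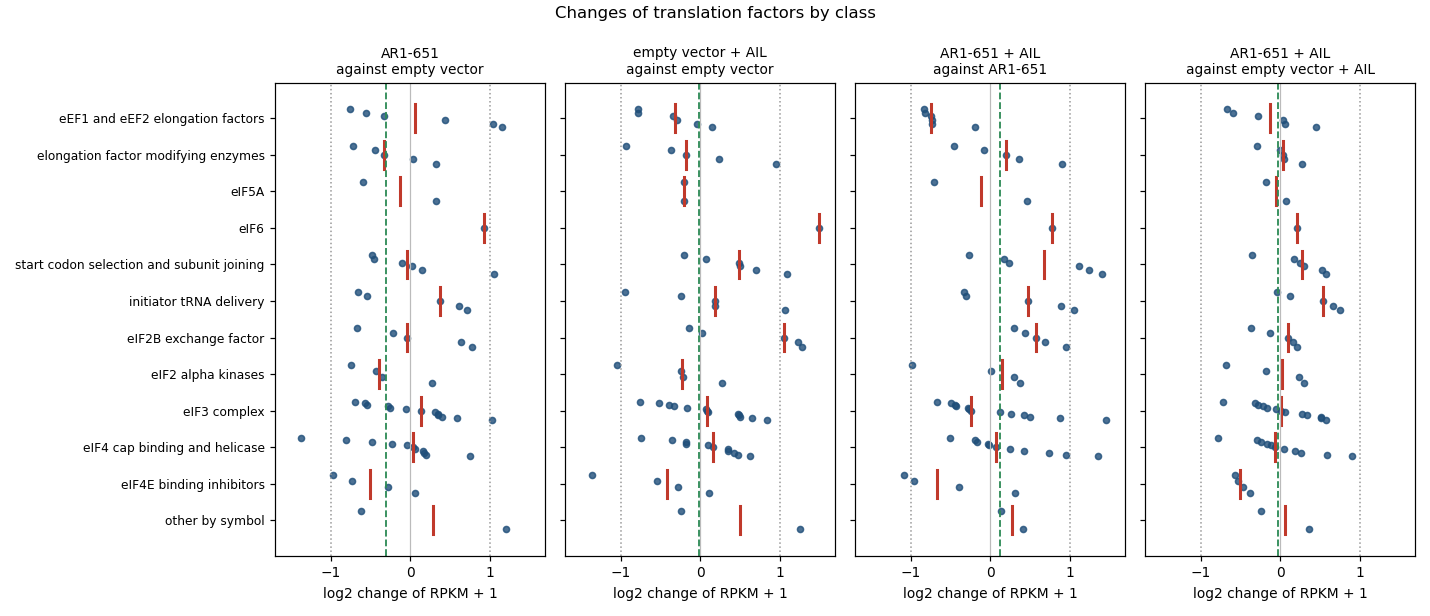
Difference of log2(RPKM + 1) of each member by functional class in the 4 comparisons, with the class median as a red bar, the median of all genes as a green dashed line and 2-fold changes as dotted lines. The 6 eEF1 and eEF2 genes lie below 0 with AIL in AR1-651 cells, the eIF2B subunits reach 1.28 with AIL in empty vector cells, and no point passes a dotted line between the AIL-treated libraries.

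The differences moved with properties of the transcripts, across all genes and across the members. With AR1-651, the difference fell with transcript length, with a Spearman rho of -0.51 over the 64 members and -0.41 over 14005 genes with a known length. Its median was 0.35 in the third of members with the shortest transcripts (691 to 1633 nt) and -0.45 in the third with the longest (3164 to 7388 nt). With AIL in AR1-651 cells, the difference fell with GC content, with a rho of -0.42 over members and -0.41 over all genes. Its median was 0.43 in the third of members with the lowest GC content and -0.26 in the third with the highest. Between the AIL-treated libraries the rho with GC content was -0.59 over members and -0.61 over all genes, while with AIL in empty vector cells it was -0.11 and -0.06. These correlations are across genes, which share the libraries and are no independent replicates, and the part of length and GC content in the differences of single members was not tested beyond removing their trend over all genes. With that trend removed, a choice made after seeing the data, 14 of the 22 differences of at least 2-fold dropped below 2-fold and none changed sign. Another 7 differences, of members named below, were under 2-fold as deposited and reached it with the trend removed. Values after this removal are given below as trend-removed.

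**Figure D3:**
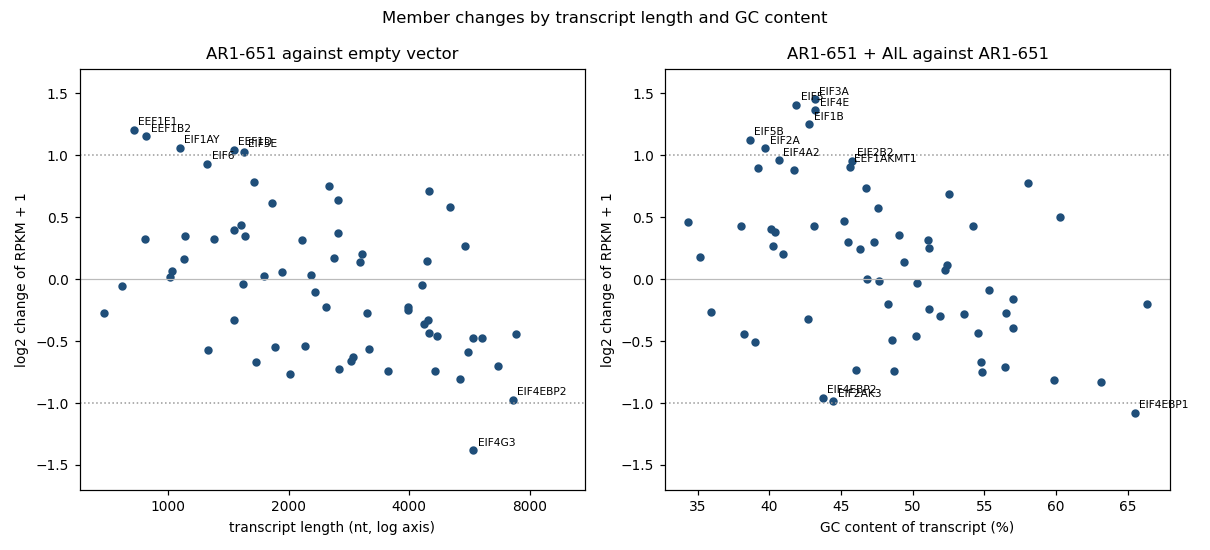
Left, difference of log2(RPKM + 1) between AR1-651 and empty vector against transcript length in nucleotides on a log axis. Right, difference between AR1-651 + AIL and AR1-651 against GC content in percent. Each point is 1 of the 64 members and dotted lines mark 2-fold. The members raised at least 2-fold with AR1-651 have transcripts of 819.5 to 1543 nt, and the 6 raised with AIL in AR1-651 cells have a GC content of 38.6% to 43.2%.

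Among the elongation factors, AIL went with lower mRNA in AR1-651 cells for each of the 6 eEF1 and eEF2 genes, with a median difference of -0.74, although none reached 2-fold, and 42.5% of all genes were below 0. EEF1A1 (Entrez Gene 1915), the main carrier of aminoacyl-tRNA, was at 3140.1 RPKM in empty vector, 1828 in empty vector + AIL, 2495 in AR1-651 and 1502 in AR1-651 + AIL. Both AIL libraries were below both untreated ones, and the differences with AIL were -0.78 in empty vector cells and -0.73 in AR1-651 cells. The translocation factor EEF2 (Entrez Gene 1938) had the same order, with 2384 RPKM in empty vector, 1380.5 in empty vector + AIL, 1617 in AR1-651 and 917 in AR1-651 + AIL, and differences with AIL of -0.79 and -0.82. Trend-removed values in empty vector and AR1-651 cells were -0.71 and -0.995 for EEF1A1 and -0.65 and -0.69 for EEF2. With median-ratio scaling EEF2 passed 2-fold in AR1-651 cells, at -1.04, as did EEF1D, at -1.05. EEF1A1 has many processed pseudogenes of nearly the same sequence, so how its reads were assigned is uncertain.

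The subunits of the eEF1B exchange complex, which recharge eEF1A, differed from EEF1A1 and EEF2 in that they were highest with AR1-651. EEF1B2 (Entrez Gene 1933) was at 296 RPKM in empty vector, 289 in empty vector + AIL, 660 in AR1-651 and 395 in AR1-651 + AIL. EEF1D (Entrez Gene 1936) was at 380 RPKM in empty vector, 422 in empty vector + AIL, 785 in AR1-651 and 441 in AR1-651 + AIL. In both genes the AR1-651 library stood alone above the other 3, 1.15 and 1.04 above empty vector on the log2 scale, and AIL in AR1-651 cells went with differences of -0.74 and -0.83. Both of these comparisons use the AR1-651 library, so a high value there alone would set both. EEF1G, the third subunit, was at 1929 RPKM in empty vector, 1523 in empty vector + AIL, 2615 in AR1-651 and 1555 in AR1-651 + AIL, a difference of 0.44 with AR1-651 and -0.75 with AIL in AR1-651 cells. The trend-removed difference with AR1-651 was 0.93 for EEF1B2, below 2-fold, and 1.23 for EEF1D. With equal sums over genes other than ribosomal protein genes the differences were 0.99 and 0.88, both below 2-fold.

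Like EEF1B2, EEF1D and EEF1G, the ribosomal protein genes as a class were higher with AR1-651 and lower with AIL in AR1-651 cells. With AR1-651 the 84 ribosomal protein genes had a median difference of 0.88 with 34 at least 2-fold higher (4.01% of all genes were), with AIL in AR1-651 cells the median was -0.52 with 80 of 84 below 0 (42.5% of all genes were), and with AIL in empty vector cells it was 0.06. In that last comparison EEF1G was lower, at -0.34. Between the AIL-treated libraries the ribosomal protein genes had a median of 0.29 with 68 of 84 above 0, where 46.9% of all genes were. EEF1B2 differed there by 0.45, EEF1D by 0.06 and EEF1G by 0.03. EEF1A2, the eEF1A paralogue of muscle and neurons, was at 668 RPKM in empty vector, 547 in empty vector + AIL, 394 in AR1-651 and 343 in AR1-651 + AIL. Both AR1-651 libraries were below both empty vector libraries, by -0.76 without AIL and -0.67 with AIL. The transcript of EEF1A2 has the highest GC content of all members, 66.4%, and the trend-removed differences were -0.39 and -0.16. EEF1A1 and EEF2 were also lower with AR1-651. Their differences without and with AIL were -0.33 and -0.28 for EEF1A1 and -0.56 and -0.59 for EEF2. Trend-removed, these were 0.09 and -0.20 for EEF1A1 and -0.08 and -0.12 for EEF2.

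A list of 9 members known for TOP mRNAs, written with earlier results of these data known (EEF1A1, EEF1B2, EEF1D, EEF1G, EEF2, EIF3E, EIF3F, EIF3H and EIF4B) held 7 members below 0 with AIL in empty vector cells (median -0.33) and 8 below 0 in AR1-651 cells (median -0.73), none of them by 2-fold, where 51.0% and 42.5% of all genes were below 0. EEF1A1, EEF1B2, EEF1D, EEF1G and EEF2 belong to the eEF1 and eEF2 genes described above, so these counts largely repeat that result. Of the list, EEF1G had no run at its annotated start, and EEF1D, EIF3E and EIF3H had no promoter sequence. The 12 members with the printed run had a median difference with AIL of -0.17 in empty vector cells and -0.29 in AR1-651 cells. For the 39 members with a promoter and no run these were 0.09 and 0.25. Over all genes the contrast was smaller. With AIL in AR1-651 cells the median was 0.04 for 783 genes with the run and 0.16 for 10390 without it. In empty vector cells these medians were nearly equal, at -0.005 and 0.003. The run was no sign of a single direction among the members. EIF2A, which has it, was 1.06 higher with AIL in AR1-651 cells, EIF3M was 0.43 higher and EIF4A2 was 0.96 higher, although the values of EIF2A and EIF4A2 were 0.34 and 0.31 trend-removed.

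Of the enzymes that modify elongation factors, none of 5 differed by 2-fold in any comparison on the RPKM + 1 scale. Of all genes, 1.46% to 14.9% did so, depending on comparison and direction. EEF2K, the kinase that inactivates eEF2, was at 8.45 RPKM in empty vector, 3.95 in empty vector + AIL, 5.95 in AR1-651 and 4.07 in AR1-651 + AIL. It was lower in both AIL libraries, by differences of -0.93 and -0.46. The first passed 2-fold with a pseudocount of 0.1, at -1.08, and with equal sums, at -1.03, and was -0.68 trend-removed. EEF1AKMT1, a lysine methyltransferase of eEF1A, was higher in both, at 15.6 RPKM in empty vector against 31.3 with AIL and at 19.8 in AR1-651 against 37.9 with AIL, differences of 0.96 and 0.91. EEF1AKMT3, another methyltransferase of eEF1A, was at 5.37 RPKM in empty vector, 3.94 in empty vector + AIL, 2.85 in AR1-651 and 3.93 in AR1-651 + AIL. EIF5A, the hypusine-bearing factor that helps ribosomes past proline runs and in termination, was at 218 RPKM in empty vector, 190 in empty vector + AIL, 273 in AR1-651 and 167 in AR1-651 + AIL, a difference of -0.71 with AIL in AR1-651 cells and of -0.20 in empty vector cells. Its near copy EIF5AL1 makes the assignment of a few reads uncertain.

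**Figure D4:**
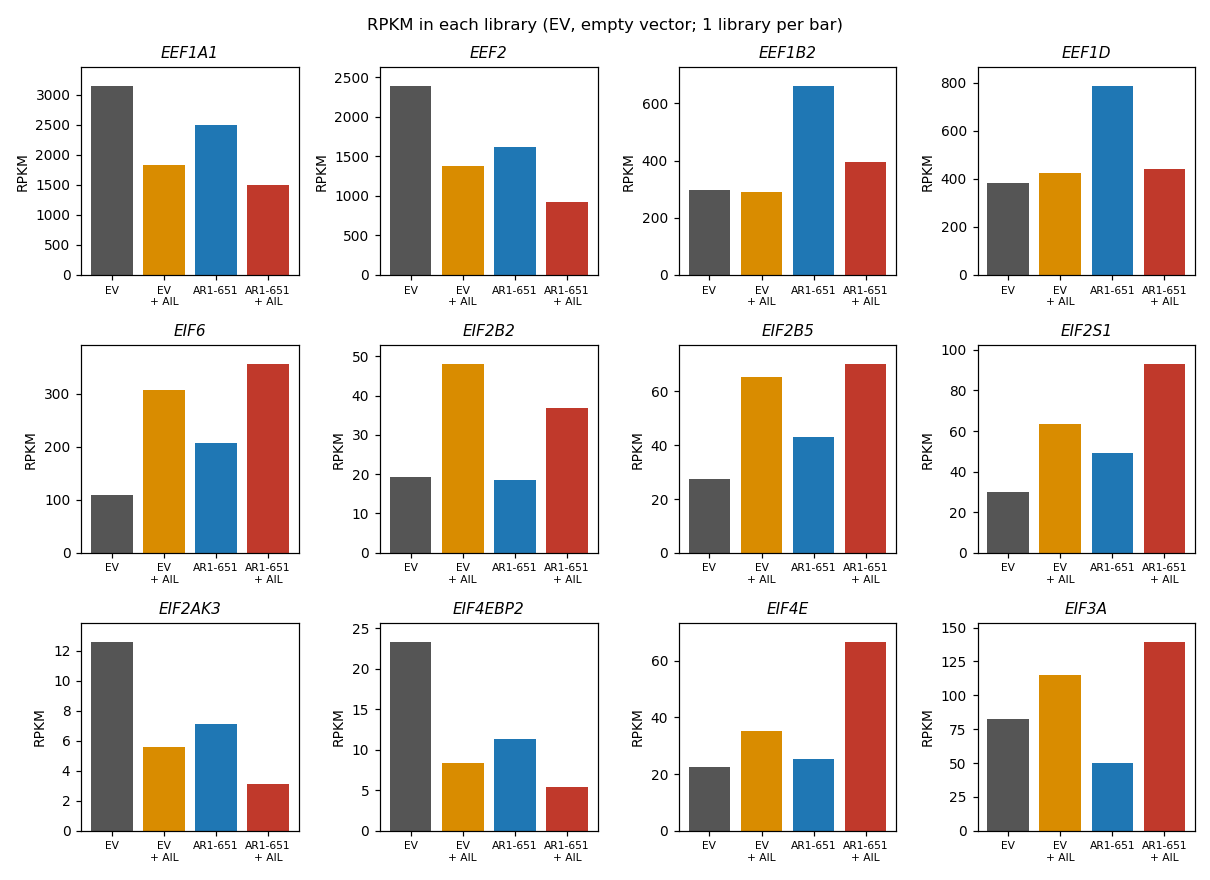
RPKM of 12 members in each library as bars from 0, with 1 library per bar and no error. EEF1A1 and EEF2 are lower in both AIL libraries, EEF1B2 and EEF1D are highest with AR1-651, EIF6, EIF2B2, EIF2B5 and EIF2S1 are higher in both AIL libraries, and EEF1A1, EEF2, EIF2AK3 and EIF4EBP2 are highest with empty vector and lowest with AR1-651 + AIL.

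EIF6 (Entrez Gene 3692), which binds the large ribosomal subunit and keeps it from joining the small one too early, had the largest difference with AIL of all members in empty vector cells. It was at 108 RPKM in empty vector, 308 in empty vector + AIL, 208 in AR1-651 and 356 in AR1-651 + AIL. The empty vector library was the lowest of the 4, and both AIL libraries were above both untreated ones. With AIL it was 2.83-fold higher in empty vector cells on the RPKM + 1 scale, and the log2 difference was 0.77 in AR1-651 cells and 0.93 with AR1-651. The first was 1.45 on the log2 scale trend-removed and from 1.39 to 1.51 with the other scalings and the smaller pseudocount.

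The factors of initiator tRNA delivery did not move as one. EIF2S1 (Entrez Gene 1965), the alpha subunit of eIF2 and the target of its kinases, was at 29.7 RPKM in empty vector, 63.7 in empty vector + AIL, 49.4 in AR1-651 and 92.9 in AR1-651 + AIL. It was higher with AIL in both backgrounds, by 1.07 and 0.90, and also higher with AR1-651, by 0.71. Trend-removed, these differences were 1.14, 0.20 and 1.21, and the first was 0.97 with equal sums. EIF2S2, the beta subunit, was at 57.9 RPKM in empty vector, 66.0 in empty vector + AIL, 75.4 in AR1-651 and 105 in AR1-651 + AIL.

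EIF2S3, the gamma subunit that binds GTP and the tRNA, went the opposite way and was highest in empty vector, at 75.7 RPKM, with 38.9 in empty vector + AIL, 47.5 in AR1-651 and 37.7 in AR1-651 + AIL. The difference with AIL was -0.94 in empty vector cells and -0.33 in AR1-651 cells. The first passed 2-fold with equal sums, at -1.05, and trend-removed, at -1.07. EIF2A, a separate factor that can deliver initiator tRNA without eIF2, was at 35.5 RPKM in empty vector, 29.9 in empty vector + AIL, 24.1 in AR1-651 and 51.1 in AR1-651 + AIL. It was highest with AR1-651 + AIL, by 1.06 over AR1-651, which was 0.34 trend-removed and 0.84 with median-ratio scaling. EIF2D, a factor that can bring tRNA to the ribosome without GTP, lay between 24.3 and 37.8 RPKM and was highest in AR1-651.

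The eIF2B exchange factor, the enzyme on which the integrated stress response acts, had 3 of its 5 subunits at least 2-fold higher with AIL in empty vector cells, where 9.53% of all genes were, and a class median of 1.06 against -0.02 over all genes. EIF2B2 (Entrez Gene 8892, beta) was at 19.2 RPKM in empty vector, 48.0 in empty vector + AIL, 18.6 in AR1-651 and 36.9 in AR1-651 + AIL. EIF2B4 (delta) was at 39.2 RPKM in empty vector, 82.7 in empty vector + AIL, 68.1 in AR1-651 and 92.3 in AR1-651 + AIL. EIF2B5 (Entrez Gene 8893, epsilon, the catalytic subunit) was at 27.4 RPKM in empty vector, 65.5 in empty vector + AIL, 43.3 in AR1-651 and 70.1 in AR1-651 + AIL. In each of them both AIL libraries were above both untreated ones.

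The differences with AIL in empty vector cells were 1.28 for EIF2B2, 1.06 for EIF2B4 and 1.23 for EIF2B5, and 1.33, 0.97 and 1.22 trend-removed. With equal sums that of EIF2B4 was 0.95. In AR1-651 cells all 5 subunits were above 0, from 0.30 to 0.95, with none at 2-fold, and 56.2% of all genes were above 0. Trend-removed, EIF2B1 was at -0.032 in that comparison, and the other subunits were between 0.36 and 0.68. EIF2B1 (alpha), at 37.8 to 46.9 RPKM, and EIF2B3 (gamma), at 8.59 to 14.5 RPKM, differed little with AIL in empty vector cells, by -0.14 and 0.02. EIF2B3 was lowest in AR1-651, with a difference of -0.67 from empty vector.

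Of the 4 kinases of eIF2 alpha, EIF2AK3 (Entrez Gene 9451, PERK, the kinase of endoplasmic reticulum stress) was the one that differed by 2-fold. It was at 12.6 RPKM in empty vector, 5.55 in empty vector + AIL, 7.10 in AR1-651 and 3.09 in AR1-651 + AIL. It was lower with AIL in each background, by -1.05 and -0.99, and lower with AR1-651 at each AIL state. The trend-removed differences with AIL were -0.99 and -1.34, and that with AR1-651 without AIL was -0.31 in place of -0.74. An antisense transcript, EIF2AK3-AS1, was at 5.96 RPKM in empty vector, 2.60 in empty vector + AIL, 3.18 in AR1-651 and 2.68 in AR1-651 + AIL, and since the strand used in counting is not stated, reads of the pair may not be told apart. EIF2AK4 (GCN2, the amino acid starvation kinase) was at 15.8 RPKM in empty vector, 19.2 in both empty vector + AIL and AR1-651 and 23.9 in AR1-651 + AIL, so all 4 of its differences were between 0.27 and 0.30. EIF2AK1 (HRI, the haem-regulated kinase) lay between 48.2 and 65.5 RPKM, and EIF2AK2 (PKR, the double-stranded RNA kinase) between 8.80 and 11.8 RPKM.

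Among the factors of start codon selection and subunit joining, 5 of 6 were above 0 with AIL in each background, where 48.3% of all genes were above 0 in empty vector cells and 56.2% in AR1-651 cells. The exceptions were different genes, EIF1AX in empty vector cells, at -0.21, and EIF1AY in AR1-651 cells, at -0.26 and -1.03 trend-removed. EIF1B, a near relative of the start codon factor EIF1, was at 54.2 RPKM in empty vector, 116 in empty vector + AIL, 54.8 in AR1-651 and 132 in AR1-651 + AIL. The untreated libraries were alike, and the differences with AIL were 1.09 and 1.25, which became 0.84 and 0.88 trend-removed, and the first was 0.98 with equal sums. EIF5, the GTPase activator of eIF2, was at 41.8 RPKM in empty vector, 68.5 in empty vector + AIL, 30.2 in AR1-651 and 81.8 in AR1-651 + AIL, differences of 0.70 and 1.41 with AIL, the second being 0.89 trend-removed. EIF5B, the GTPase that joins the subunits, was at 22.9 RPKM in empty vector, 24.2 in empty vector + AIL, 16.2 in AR1-651 and 36.5 in AR1-651 + AIL. Its difference of 1.12 with AIL in AR1-651 cells was 0.38 trend-removed and 0.92 with median-ratio scaling, and in empty vector cells it was 0.08.

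EIF1, the main scanning factor, was at 285 RPKM in empty vector, 401 in empty vector + AIL, 265 in AR1-651 and 313 in AR1-651 + AIL. Its difference of 0.24 with AIL in AR1-651 cells turned to -0.055 trend-removed. EIF1AY, the Y-linked copy of eIF1A, was at 15.6 RPKM in empty vector, 22.4 in empty vector + AIL, 33.5 in AR1-651 and 27.8 in AR1-651 + AIL, which was 1.06 higher with AR1-651 than with empty vector (0.98 trend-removed, 0.90 with equal sums). Its X-linked copy EIF1AX lay between 20.8 and 30.5 RPKM, with a difference of 0.14 in that comparison. The copies are nearly identical in their coding sequence, so how reads were split between them is uncertain.

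The eIF3 complex, the large platform between the small subunit and the mRNA, had 13 members, with a class median of 0.14 with AR1-651, 0.09 with AIL in empty vector cells and -0.24 with AIL in AR1-651 cells. The largest single difference of any member with AIL in AR1-651 cells was that of its largest subunit. EIF3A (Entrez Gene 8661) was at 82.3 RPKM in empty vector, 115 in empty vector + AIL, 50.2 in AR1-651 and 139 in AR1-651 + AIL. It was lowest in AR1-651 and highest in AR1-651 + AIL, a difference of 1.45 between them, 0.99 trend-removed and 1.24 with median-ratio scaling. EIF3E was at 175 RPKM in empty vector, 184 in empty vector + AIL, 357 in AR1-651 and 263 in AR1-651 + AIL. It was 1.03 higher with AR1-651 than with empty vector (0.99 trend-removed, 0.86 with equal sums) and differed by -0.44 with AIL in AR1-651 cells, which was -1.20 trend-removed.

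EIF3F, a subunit with an MPN domain, was at 194 RPKM in empty vector, 135 in empty vector + AIL, 130 in AR1-651 and 81.5 in AR1-651 + AIL. Each of the other libraries was below empty vector, and AR1-651 + AIL was lowest. The 5 subunits outside the octamer core (EIF3B, EIF3D, EIF3G, EIF3I and EIF3J) were all above 0 with AR1-651, from 0.14 to 0.40, where 32.2% of all genes were, and with AIL in empty vector cells, from 0.09 to 0.84, where 48.3% were. Of these, EIF3G was at 194 RPKM in empty vector, 347 in empty vector + AIL, 246 in AR1-651 and 350 in AR1-651 + AIL. Of the 8 core subunits (EIF3A, EIF3C, EIF3E, EIF3F, EIF3H, EIF3K, EIF3L and EIF3M), 6 were below 0 with AR1-651, where 67.0% of all genes were, and 5 were below 0 with AIL in each background, where 51.0% of all genes were in empty vector cells and 42.5% in AR1-651 cells. The reads of EIF3C may be shared with its near-identical copy EIF3CL, which was not analysed here.

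For the cap-binding complex, EIF4E (Entrez Gene 1977), which binds the mRNA cap, was at 22.5 RPKM in empty vector, 35.2 in empty vector + AIL, 25.3 in AR1-651 and 66.5 in AR1-651 + AIL. Both AIL libraries were above both untreated ones, and the differences with AIL were 0.62 and 1.36, which became 0.37 and 1.00 trend-removed, the second just under 2-fold. EIF4A2, a copy of the helicase eIF4A, was at 351 RPKM in empty vector, 472 in empty vector + AIL, 366 in AR1-651 and 712 in AR1-651 + AIL, a difference of 0.96 with AIL in AR1-651 cells that was 0.31 trend-removed. EIF4A1, the main helicase, stayed between 315 and 355 RPKM in all 4 libraries.

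EIF4G1, the main scaffold, was at 172 RPKM in empty vector, 151 in empty vector + AIL, 97.6 in AR1-651 and 87.0 in AR1-651 + AIL. Both AR1-651 libraries were below both empty vector libraries, by -0.81 and -0.79, and AIL went with differences of -0.18 and -0.16. EIF4G3, its paralogue, was at 16.5 RPKM in empty vector, 12.7 in empty vector + AIL, 5.71 in AR1-651 and 10.2 in AR1-651 + AIL, the one member at least 2-fold lower with AR1-651. That difference was -1.38, and -0.84 trend-removed. Both scaffolds have long transcripts, and the trend-removed differences of EIF4G1 were -0.13 without AIL and -0.31 with AIL. EIF4B, which stimulates the helicase, lay between 228 and 297 RPKM, and EIF4E2, a cap-binding protein with a repressive role, was at 56.1 RPKM in empty vector, 78.3 in empty vector + AIL, 95.2 in AR1-651 and 94.0 in AR1-651 + AIL. EIF4E3, a rare cap-binding relative, was at 5.71 RPKM in empty vector, 3.01 in empty vector + AIL, 3.82 in AR1-651 and 2.40 in AR1-651 + AIL. Its difference with AIL in AR1-651 cells was -0.50, and -1.23 trend-removed.

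The inhibitors of eIF4E went the other way from EIF4E itself. EIF4EBP1 was at 64.4 RPKM in empty vector, 43.9 in empty vector + AIL, 67.4 in AR1-651 and 31.3 in AR1-651 + AIL. EIF4EBP2 (Entrez Gene 1979) was at 23.3 RPKM in empty vector, 8.40 in empty vector + AIL, 11.4 in AR1-651 and 5.35 in AR1-651 + AIL. EIF4EBP3 was at 46.6 RPKM in empty vector, 38.1 in empty vector + AIL, 38.4 in AR1-651 and 29.03 in AR1-651 + AIL. In each of these 3 genes, AIL went with a lower value in both backgrounds, as it did in 4711 of all 14626 genes.

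The differences with AIL were -0.54 and -1.08 for EIF4EBP1, -1.37 and -0.96 for EIF4EBP2 and -0.28 and -0.39 for EIF4EBP3, in empty vector and AR1-651 cells. Trend-removed, EIF4EBP1 was at -0.83 in AR1-651 cells and EIF4EBP2 at -1.22 and -1.39. EIF4ENIF1 (4E-T), which carries eIF4E to the nucleus and to P-bodies, was at 7.13 RPKM in empty vector, 7.78 in empty vector + AIL, 3.87 in AR1-651 and 5.07 in AR1-651 + AIL. It did not share the pattern of the 4E-binding proteins, with differences with AIL of 0.11 and 0.32.

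Among members that carry the name only, EEF1E1 was lowest in empty vector, at 29.4 RPKM, against 71.5 in empty vector + AIL, 69.1 in AR1-651 and 91.9 in AR1-651 + AIL. It was 1.21 higher with AR1-651 and 1.26 higher with AIL in empty vector cells (1.01 and 1.03 trend-removed), and 0.41 higher with AIL in AR1-651 cells, which turned to -0.11 trend-removed. The comparisons with empty vector share that library, so a low value there alone would raise both. EIF1AD, a nuclear protein named for its similarity to eIF1A, lay between 6.07 and 9.92 RPKM.

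The 2 comparisons of AIL share no library, so their values can be set side by side. Across the 64 members the differences with AIL in empty vector and AR1-651 cells had a Pearson r of 0.675 and a Spearman rho of 0.664, against an r of 0.565 over all 14626 genes. The points are genes of the same 4 libraries and no independent replicates, so no p is given. In both backgrounds 25 members were higher and 19 lower with AIL, and 20 were higher in one and lower in the other. Same-direction members made up 68.8%, against 70.2% of all genes, which is near the background.

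**Figure D5:**
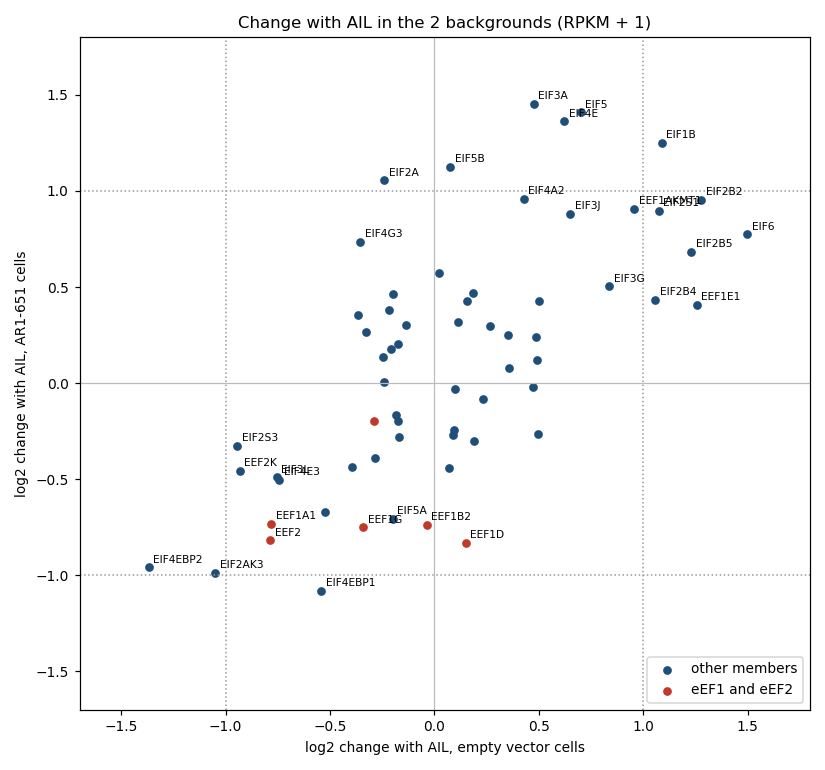
Difference of log2(RPKM + 1) with AIL in empty vector cells (horizontal axis) and in AR1-651 cells (vertical axis) for the 64 members, with the eEF1 and eEF2 genes in red and dotted lines at 2-fold. EIF1B lies at 1.09 and 1.25, the 4E-binding proteins and EIF2AK3 lie at the lower left, and the red points lie below 0 on the vertical axis.

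Other genes of translation were taken from a list of 28 regulators, recycling and termination factors and poly(A) binding proteins, also written with earlier results of these data known. With AR1-651, 4 of them were at least 2-fold lower and none higher, beside 11.7% and 4.01% of all genes. With AIL, 2 were at least 2-fold higher and 3 lower in empty vector cells (9.53% and 9.03% of all genes), and 4 were higher and 1 lower in AR1-651 cells (14.9% and 5.74% of all genes). These counts are near those shares, while between the AIL-treated libraries none differed by 2-fold. PPP1R15A (GADD34, which guides the phosphatase that reverses eIF2 alpha phosphorylation) was at 4.91 RPKM in empty vector, 16.2 in empty vector + AIL, 2.33 in AR1-651 and 9.32 in AR1-651 + AIL. Its differences with AIL were 1.54 and 1.63.

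LARP1, which binds TOP mRNAs, was at 66.5 RPKM in empty vector, 28.5 in empty vector + AIL, 26.6 in AR1-651 and 14.6 in AR1-651 + AIL. PABPC1, the main poly(A) binding protein and itself a TOP mRNA, was at 344 RPKM in empty vector, 117 in empty vector + AIL, 171 in AR1-651 and 75.8 in AR1-651 + AIL. For both, empty vector was highest and AR1-651 + AIL lowest. Many members had this order, among them EEF1A1, EEF1A2, EEF2, EIF2AK3, EIF2S3, EIF3F, EIF4EBP2, EIF4EBP3 and EIF4G1. Taken singly, empty vector was highest for 20 of the 64 members and AR1-651 + AIL lowest for 18, beside 37.6% and 26.2% of all genes. The recycling factor ABCE1 was at 15.95 RPKM in empty vector, 16.2 in empty vector + AIL, 7.14 in AR1-651 and 27.6 in AR1-651 + AIL, the same order of AR1-651 below and AR1-651 + AIL above the others as in EIF3A. DPH5, an enzyme of the diphthamide residue of eEF2, was 1.11 and 1.15 higher with AIL. PDCD4, an inhibitor of eIF4A, differed by -1.16 with AIL in empty vector cells, PABPC4 differed by -1.02 with AR1-651, and RPS6KB1, the S6 kinase, was 1.00 higher with AIL in AR1-651 cells.

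Of 9 mitochondrial translation factors, GFM2 alone was at least 2-fold lower with AIL in empty vector cells (-1.05), beside 9.03% of all genes. MTRF1 alone was at least 2-fold higher with AIL in AR1-651 cells (1.02, at 1.99 and 5.07 RPKM), beside 14.9% of all genes. Both counts are near those shares. The mitochondrial elongation factor TUFM stayed between 125 and 173 RPKM in all 4 libraries.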

How the data were processed

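RNA-seq of LNCaP cells gave 1 library for each of 4 conditions. The authors deposited RPKM values (read counts divided by exon length and library size) rounded to 2 decimals, by Entrez Gene identifier. The submitters' processing notes name BWA 0.7.10-r789 and hg19. The counting tool and the annotation are not given in the sources used here, nor is the strand used in counting. The study's methods describe total RNA depleted of ribosomal RNA, while the labels also name an oligo(dT) step. RPKM holds no read counts, and low values of short genes gave no step shared by most genes, so the depth is unknown.

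Symbols came from a RefSeq gene table (GRCh38.p14, 19703 genes matched, no coordinates used), the length and GC content of transcripts from GENCODE release 29 by RefSeq identifier, and promoter sequences from a RefSeq table (GRCh38.p14). Genes had to reach an RPKM of 1 in at least 1 library, differences of log2(RPKM + 1) were taken as deposited, without rescaling, and 2-fold counted as raised or lowered. There was no test and no interval, and 1 gene of the marker lists is not reported here. Members were named when they changed 2-fold in any comparison, were among the 10 most abundant, had the largest rise or fall of their class, or had a key role. Most of these are given with the value of each library and the others with a range. The members and lists were chosen with earlier results of these data known. Alternatives were a pseudocount of 0.1, other scalings and filters, a 1.5-fold threshold and, as a choice made after seeing the data, subtraction of the trend of each difference over transcript length and GC content (polynomial of degree 3 in ranks over all genes). The 2-fold call and the median-ratio factor were checked in a separate calculation, on the empty vector library with known changes put into it. The trend removal, the equal sums and the promoter search were not checked in this way. Calculations ran in Python 3.11.15 with pandas 2.3.3, NumPy 2.4.6, SciPy 1.17.1 and Matplotlib 3.10.9.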

Additional observations from a re-analysis of the deposited data

Results flagged for a closer look

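The difference with AIL had opposite signs in the 2 backgrounds for 20 of the 64 members, near the share over all genes, and for 3 class medians. The 10 of these members that the naming rule selected are given here. With 1 library per condition, each sign rests on a single pair of libraries and the difference between the backgrounds was not tested. The values are the difference in AR1-651 cells minus the difference in empty vector cells, on the log2(RPKM + 1) scale. EIF2A had the largest, 1.30 (from -0.24 in empty vector cells to 1.06 in AR1-651 cells), followed by the scaffold EIF4G3 with 1.09 (from -0.36 to 0.74). The eEF1B subunit EEF1D had -0.98 (from 0.15 to -0.83). The methyltransferase EEF1AKMT3 had 0.72, EIF1AY had -0.76, the kinase EIF2AK2 had 0.60, EIF2B1 had 0.44, EIF3E had -0.52, EIF4E2 had -0.49 and EIF4A1 had -0.13. The class medians differed by 0.38 for the eIF2 alpha kinases, by -0.33 for the eIF3 complex and by 0.38 for the enzymes that modify elongation factors. The difference with AIL in AR1-651 cells moved with GC content across all genes (rho = -0.41) and that in empty vector cells hardly did (rho = -0.06), and the part of this in the values above was not tested.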

How the results depend on the processing

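With 1 library per condition nothing could be left out in turn. No paired analysis was possible because the labels give no replicate numbers and each condition has a single library. Of the 22 differences of at least 2-fold, 22 were still at least 2-fold with a pseudocount of 0.1, 20 with median-ratio scaling (EIF2A and EIF5B were lost), 15 with equal sums over genes other than ribosomal protein genes and 8 once the trend over transcript length and GC content was subtracted (trend-removed), and none changed sign. Other differences of the named members reached 2-fold only in these settings, 4, 7, 3 and 7 of them in the same order.

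Members raised with AR1-651 were 8 with median-ratio scaling, 1 with equal sums and 11 at 1.5-fold, and members lowered were 2 with a pseudocount of 0.1, 2 with equal sums, 12 at 1.5-fold and 0 trend-removed. The median was 0.22 with median-ratio scaling, -0.20 with equal sums and 0.11 trend-removed. With AIL in empty vector cells, 4 members were raised and 4 lowered with equal sums, 12 were raised and 8 lowered at 1.5-fold, and the median was -0.031 with equal sums and -0.031 trend-removed. With AIL in AR1-651 cells, 14 were raised and 10 lowered at 1.5-fold, 0 were raised and 5 lowered trend-removed, 3 were lowered with a pseudocount of 0.1 and 5 with median-ratio scaling, and the median was -0.046 with median-ratio scaling and -0.11 trend-removed. Between the AIL-treated libraries 4 were raised and 5 lowered at 1.5-fold. The causes were not tested. Filters on low RPKM moved none of these counts by over 1.5 times. Depth is unknown, so counting error cannot be given, and it is largest for members of a few RPKM.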

Other observations

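Non-coding genes that share these symbols were left out of the members. EIF3J-DT, a transcript divergent from EIF3J, was at 13.6 RPKM in empty vector, 17.3 in empty vector + AIL, 19.9 in AR1-651 and 23.9 in AR1-651 + AIL, and EIF3J itself was at 39.8, 63.2, 51.0 and 94.8 RPKM in the same order. EIF1B-AS1 was at 0.65 RPKM in empty vector, 1.07 in empty vector + AIL, 1.11 in AR1-651 and 1.81 in AR1-651 + AIL. The transcribed pseudogene EEF1DP3 was at 3.07 RPKM in empty vector, 0.80 in empty vector + AIL, 1.39 in AR1-651 and 2.72 in AR1-651 + AIL, an order not shared by EEF1D.

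Each member has 1 library in which it was highest. This was AR1-651 + AIL for 23 members, empty vector for 20, AR1-651 for 12 and empty vector + AIL for 9. Over all genes the shares were 26.2% for AR1-651 + AIL, 37.6% for empty vector, 14.9% for AR1-651 and 21.3% for empty vector + AIL.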
